A study of Mus musculus with 9 samples.

Results

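The genes described here encode the transcription factor Myc, its obligate partner Max, and the proteins that share or compete for that partner. They were chosen by gene name from a list of 10, namely Myc, Mycn, Mycl, Max, Mxd1, Mxd3, Mxd4, Mxi1, Mnt and Mlx. Of these, 9 were found among the 22469 genes of the deposited table and all 9 passed the filter on low values, as did 17579 genes in all. Mycn is not analysed here. The cells were 4T1, a line from a mouse mammary tumour, and 9 libraries of total RNA without ribosomal RNA fall into 3 groups of 3. KO-c19 and KO-c43 are 2 lines with a knockout of Nat10, which encodes an RNA cytidine acetyltransferase, and WT carries no knockout. None of the groups received a treatment. Cultures started from 300000 cells per 6 cm dish and were harvested after 48 h. Each group is 1 line grown as 3 biological replicates, and the spread behind each p-value is therefore that between cultures, not between independently edited lines. Both knockout lines were compared with the same WT libraries.

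Myc is a basic helix-loop-helix leucine zipper protein that binds DNA only as a dimer with Max, classically at the E-box letters CACGTG, and recruits coactivators to genes of growth and ribosome production. Max has no activation domain of its own. The Mxd proteins, Mxi1 and Mnt bind the same partner and the same sites but bring the Sin3 corepressor with its histone deacetylases, so they oppose Myc. Mlx is a Max-like protein that pairs with some of these antagonists and with the nutrient-sensing factors MondoA and ChREBP. Myc is a frequent driver of mammary tumours, and the Mxd genes are known for their expression in cells that differentiate or leave the cell cycle, Mxd3 being linked to S phase instead.

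The promoter letters are shown first, since the network's own E-box occurs in the promoters of members that moved in opposite directions. RefSeq promoter windows (GRCm38.p6, 250 bases before the start site and 50 after it) were matched for 8 of the 9 members, Mycl, Max, Mxd1, Mxd3, Mxd4, Mxi1, Mnt and Mlx. Those of Max, Mxd4, Mnt and Mlx held CACGTG, which reads the same on both strands, once each. The windows of Mycl, Mxd1 and Mxd3 and the 3 windows of Mxi1 did not hold these letters. Among 32851 windows of this length, 7.15% held them, and among 10512 genes tested here that have a window the share was 11.6%. The 4 windows with the letters are printed from 250 bases before the start site through the first 10 bases of the transcript, on the coding strand, with CACGTG in capitals. The first is Max at chr12:76962239-76962498 on the minus strand, with the letters across the start site, and the second is Mxd4 at chr5:34187701-34187960 on the minus strand. Mnt at chr11:74830674-74830933 and Mlx at chr11:101087040-101087299 are on the plus strand, and the letters begin at −219, −123 and −40 from the start site in Mxd4, Mnt and Mlx.
Max: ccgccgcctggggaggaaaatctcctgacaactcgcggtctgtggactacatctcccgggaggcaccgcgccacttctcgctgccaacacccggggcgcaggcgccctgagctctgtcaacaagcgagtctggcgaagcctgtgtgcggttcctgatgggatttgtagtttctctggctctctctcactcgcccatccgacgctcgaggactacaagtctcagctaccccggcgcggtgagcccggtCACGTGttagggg
Mxd4: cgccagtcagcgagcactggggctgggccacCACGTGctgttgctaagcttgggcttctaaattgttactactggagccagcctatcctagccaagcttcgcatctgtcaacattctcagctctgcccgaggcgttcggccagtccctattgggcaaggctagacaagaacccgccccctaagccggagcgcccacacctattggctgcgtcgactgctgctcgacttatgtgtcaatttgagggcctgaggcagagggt
Mnt: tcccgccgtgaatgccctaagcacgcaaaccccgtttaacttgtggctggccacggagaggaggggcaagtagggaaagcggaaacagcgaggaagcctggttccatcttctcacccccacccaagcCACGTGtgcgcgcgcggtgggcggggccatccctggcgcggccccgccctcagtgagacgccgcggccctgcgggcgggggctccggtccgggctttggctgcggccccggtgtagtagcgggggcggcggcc
Mlx: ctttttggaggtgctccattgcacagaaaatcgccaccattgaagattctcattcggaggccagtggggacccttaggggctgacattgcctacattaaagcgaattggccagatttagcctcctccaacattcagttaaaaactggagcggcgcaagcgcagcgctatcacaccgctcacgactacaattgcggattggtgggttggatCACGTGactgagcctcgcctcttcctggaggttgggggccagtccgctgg
Max and Mlx were lower in both knockout lines than in WT, while Mxd4 and Mnt were higher, so the presence of the letters did not go with a direction. The first 20 transcribed bases at the RefSeq start were found in a GENCODE transcript for Mxd4, Mnt and Mlx but not for Max, so the place of its letters relative to the start rests on RefSeq alone. A match describes these letters and does not show that a factor binds there.

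The values are normalized counts per gene as the authors deposited them, and 1 read stood for 0.825 to 1.12 normalized counts per library, judged from the spacing of low values. The totals ran from 45628576 to 50123222 per library, with every KO-c19 library below every KO-c43 library and every KO-c43 library below every WT library. A change is the difference between group means of log2(normalized count + 1), given with its standard error from limma, with p-values adjusted over all genes tested by Benjamini-Hochberg and a threshold of 0.05, and folds are on that scale. The target of the knockout checks the labels: Nat10 averaged 1740 ± 26.4 normalized counts in KO-c19, 1746 ± 20.6 in KO-c43 and 6454 ± 40.9 in WT (SD, n = 3 each). An exact two-sided permutation test of 3 against 3 libraries gave p = 0.1 for Nat10 in each line, the smallest value it allows. Of 8 epithelial markers, 7 were measured, and their summed level ran from 92783 to 100595 normalized counts in KO-c19, from 88463 to 91437 in KO-c43 and from 128900 to 137149 in WT. The members of this list did not move together: in each line 2 rose and 5 fell, with medians of −2.18 and −2.82. The 5 include Cldn7, which passed the filter on low values only through WT, so its direction was set by the filter. The keratin genes Krt8 and Krt18, which with Krt7 make up most of the sum, rose, by 0.28 each in KO-c19 and by 0.18 and 0.17 for KO-c43. Krt7 fell, averaging 23315.5 normalized counts in KO-c19, 23349.4 in KO-c43 and 38266.5 in WT. The adhesion genes Cdh1 and Epcam fell: Cdh1 averaged 5797 normalized counts in KO-c19, 3731 in KO-c43, against 26262 in WT, and Epcam 963, 123 and 6422. Krt14 averaged 22.2 in KO-c19, 15.1 in KO-c43, against 4960 in WT, and the claudin gene Cldn7 2.03, 2.17 and 2885, with 1 library of each knockout line listed at 0. Krt7, Krt8 and Krt18 were thus abundant in all 3 groups, while Cldn7 was at or near 0 in the knockout lines. Of 5 fibroblast markers 2 were measured, and they went opposite ways. The receptor gene Pdgfra rose, at 866 normalized counts in KO-c19, 450 in KO-c43 and 273 in WT, while the collagen gene Col1a1 averaged 2.72, 6.53 and 28.5 and passed the filter on low values only through WT. The measured endothelial marker Pecam1 reached at most 17.2 normalized counts and the leukocyte marker Ptprc at most 11.1 in any library.

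At the transcript level the network shifted from Myc towards its antagonists in both lines. Myc, Mycl, Max and Mlx fell and all 5 antagonists measured, Mxd1, Mxd3, Mxd4, Mxi1 and Mnt, rose in KO-c19 and again in KO-c43 (limma adjusted p under the threshold for each, with the smallest margin for Mnt in KO-c43). All 9 members were thus called in each line, where 67.6% of all genes tested were called in KO-c19 and 65.6% in KO-c43. Called the same way in both lines were 52.4% of genes tested. In neither line did the 3 libraries of any member overlap the 3 WT libraries, which was true of 70.3% of genes in KO-c19 and 70.6% in KO-c43. Rising and falling genes called in both lines made up 25.4% and 27.0% of those tested, and genes above and below WT without overlap 34.0% and 36.2% for KO-c19, beside 35.0% and 35.6% for KO-c43. Calls are therefore common in these data, and the size of each change is set beside the share of genes that changed at least as much. The median absolute log2 change of the 9 members was 0.82 in KO-c19 and 1.03 in KO-c43, beside 0.39 and 0.37 over all genes tested. The plot of normalized counts by library and the plot of log2 changes show each member.

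**Figure D1:**
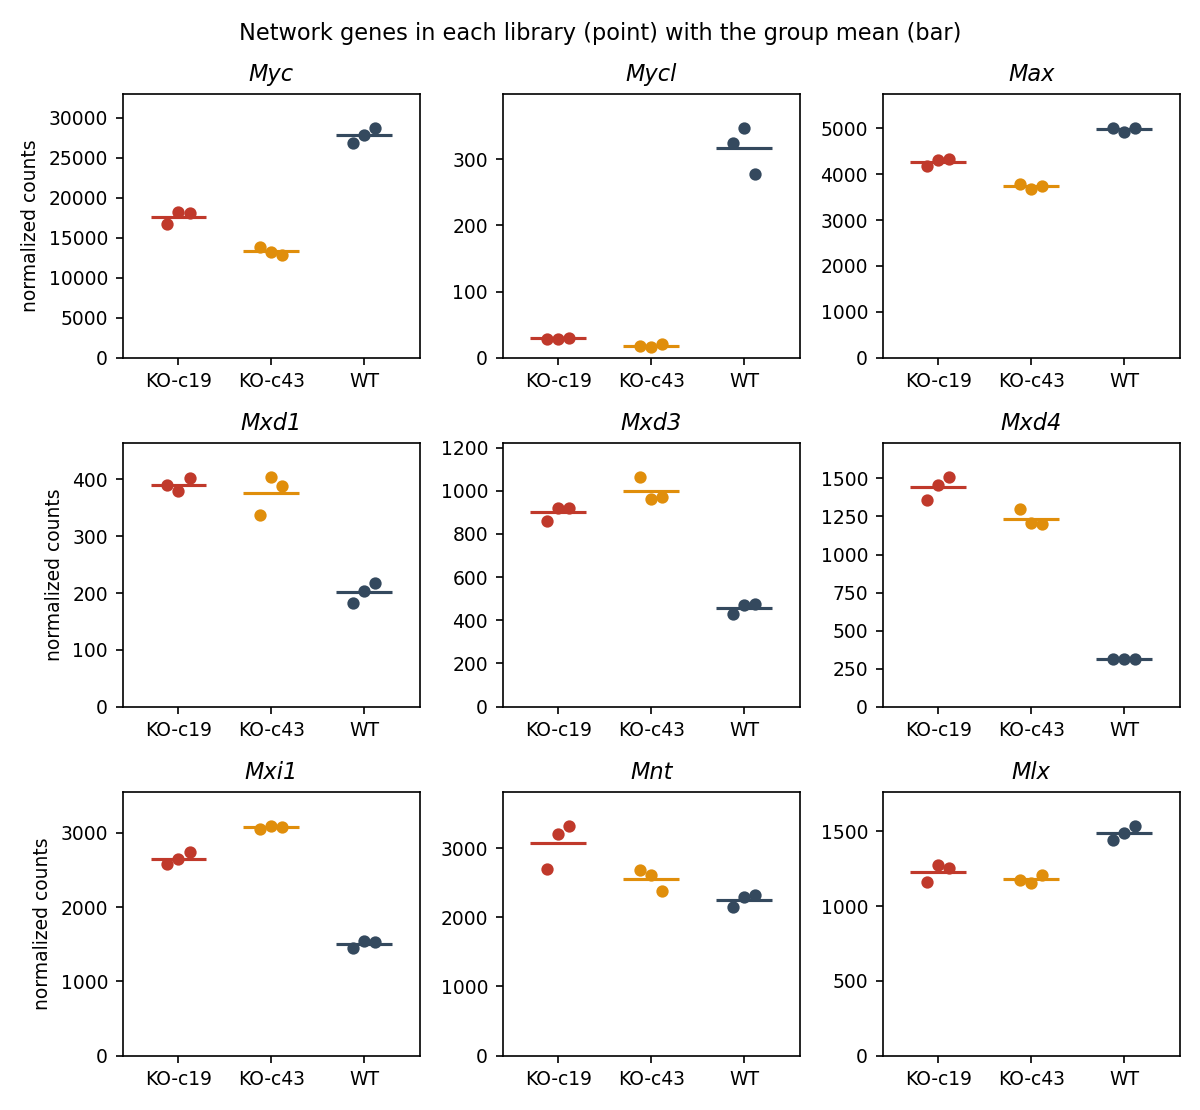
Normalized counts (vertical axes, from 0) of the 9 members in each library by group, with points for the 3 libraries and bars for the group means. Myc, Mycl, Max and Mlx lie below WT in both lines and the 5 antagonists lie above it, for example Myc at 17630 in KO-c19, 13311 in KO-c43 and 27784 in WT on average.

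**Figure D2:**
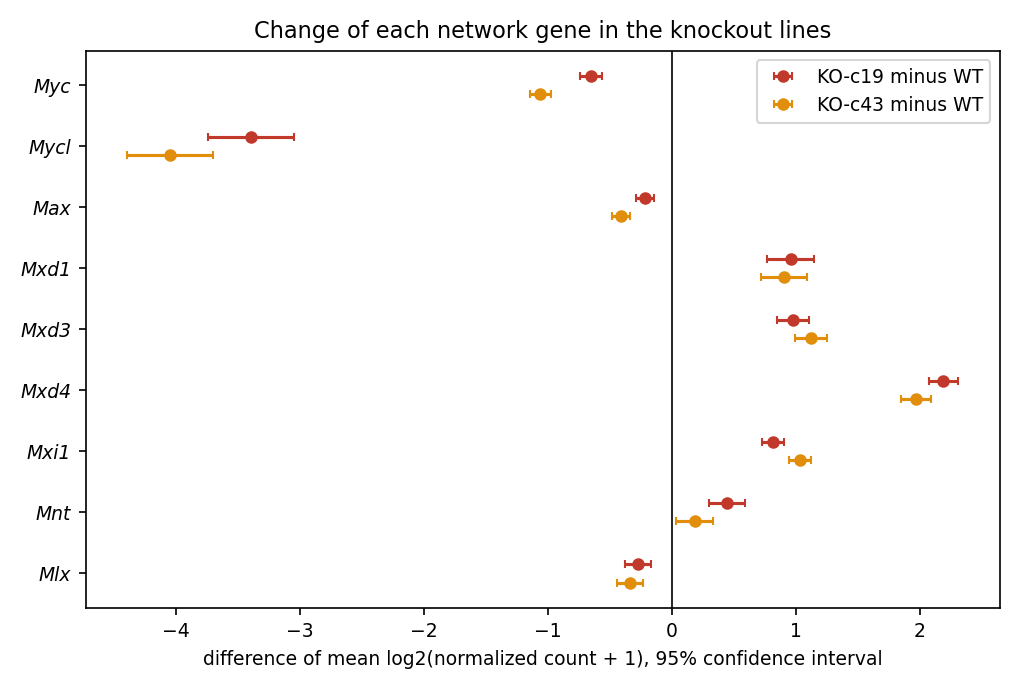
Difference of mean log2(normalized count + 1) between each knockout line and WT (horizontal axis) for the 9 members, with 95% confidence intervals from limma. Among the members the largest decrease is that of Mycl (−3.39 for KO-c19, −4.05 for KO-c43) and the largest increase that of Mxd4 (2.19 and 1.97).

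Among the activators, Myc (ENSMUSG00000022346) spans 61857240 to 61862223 on chromosome 15, plus strand. Gene positions are those of the deposited table, which states no genome build. Myc had 16646, 18185 and 18058 normalized counts in the KO-c19 libraries, 13814, 13259 and 12860 in the KO-c43 libraries, and 26766, 27879 and 28706 in the WT libraries. The highest knockout library thus lay well below the lowest WT library, and every KO-c43 library lay below every KO-c19 library. Myc fell by 0.66 ± 0.0416 on the log2 scale in KO-c19 (1.58-fold, limma adjusted p = 1.54e-10), a change that 29.5% of genes tested reached in size. In KO-c43 it fell by 1.06 ± 0.0416 (2.09-fold, limma adjusted p = 2.11e-13), which 13.5% reached. The mean in KO-c43 was 75.5% of that in KO-c19, a difference of −0.40 ± 0.0416 (limma adjusted p = 3.56e-07). Myc kept 63.5% of its WT level in KO-c19 and 47.9% in KO-c43. In bulk RNA, a smaller share of expressing cells and less transcript per cell cannot be told apart.

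Mycl (ENSMUSG00000028654, chromosome 4, 122889445 to 122896278, plus strand) encodes L-Myc, a relative of Myc with weaker transforming activity. It had 28.8, 28.4 and 30.1 normalized counts in KO-c19, 17.4, 16.2 and 20.9 in KO-c43, against 325, 347 and 277 in WT. The libraries of the 3 groups do not overlap, and the knockout values are close to the filter on low values. Mycl fell by 3.39 ± 0.164 in KO-c19 (10.5-fold, limma adjusted p = 3.69e-12) and by 4.05 ± 0.164 in KO-c43 (16.5-fold, limma adjusted p = 3.38e-13). Only 2.07% and 1.44% of genes tested changed at least as much. The lines differed by −0.65 ± 0.164 (limma adjusted p = 0.00386).

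Max (ENSMUSG00000059436, chromosome 12, 76984043 to 77008975, minus strand), the partner that Myc and the antagonists share, fell less. Its libraries had 4187, 4308 and 4332 normalized counts in KO-c19, 3795, 3680 and 3732 in KO-c43, against 5002, 4921 and 5008 in WT. The 3 groups are again separate, with KO-c43 lowest. The change was −0.22 ± 0.0351 in KO-c19 (limma adjusted p = 2.51e-05) and −0.41 ± 0.0351 in KO-c43 (limma adjusted p = 8.93e-09), sizes that 69.4% and 45.2% of genes tested reached, so most genes changed more than Max in KO-c19, and the lines differed by −0.19 ± 0.0351 (limma adjusted p = 0.000219). Dividing each library by its total left a decrease of −0.12 in KO-c19 (limma adjusted p = 0.0064). Max and Mxd1 each overlap an unnamed gene model on their own strand (Gm47218 and Gm44292), at no more than 61.7 normalized counts on average in a group, and reads of the shared bases cannot be told apart.

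Mlx (ENSMUSG00000017801, chromosome 11, 100978103 to 100983033, plus strand) fell by a like amount. It had 1162, 1273 and 1256 normalized counts in KO-c19, 1173, 1152 and 1211 in KO-c43, against 1440, 1492 and 1537 in WT. Both lines lay below WT and overlapped each other. The changes were −0.28 ± 0.0497 in KO-c19 and −0.34 ± 0.0497 in KO-c43 (limma adjusted p = 8.63e-05 and 9.83e-06), and 62.5% and 53.4% of genes tested changed at least as much. Dividing each library by its total left −0.18 in KO-c19 (limma adjusted p = 0.00453). The difference between the lines did not pass (−0.06, 95% interval −0.17 to 0.04, limma adjusted p = 0.361). Mlx overlaps Psmc3ip on the opposite strand over 385 bases of the table's gene spans, and whether the counting used strand is not given in the sources used here.

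Mxd4 had the largest increase of the 5 antagonists in both lines. Mxd4 (ENSMUSG00000037235, chromosome 5, 34331227 to 34345064, minus strand) encodes Mad4, a Max partner that recruits Sin3. It had 1357, 1456 and 1510 normalized counts in KO-c19, 1298, 1207 and 1199 in KO-c43, against 312, 316 and 316 in WT. The WT libraries were nearly identical and every knockout library was above them by several fold. Mxd4 rose by 2.19 ± 0.0563 in KO-c19 (4.56-fold, limma adjusted p = 6.32e-16) and by 1.97 ± 0.0563 in KO-c43 (3.91-fold, limma adjusted p = 2.78e-15). A change of that size was seen in 4.75% and 5.59% of genes tested. KO-c43 stood below KO-c19 by 0.22 on the log2 scale (difference −0.22 ± 0.0563, limma adjusted p = 0.00411).

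Mxd1, Mxd3 and Mxi1 rose between 1.76-fold and 2.18-fold. Mxd1 (ENSMUSG00000001156, chromosome 6, 86624024 to 86646143, minus strand), for the founding Mad protein, had 390, 379 and 403 normalized counts in KO-c19, 338, 404 and 389 in KO-c43, against 182, 203 and 218 in WT. It rose by 0.96 ± 0.0892 in KO-c19 and 0.90 ± 0.0892 in KO-c43 (limma adjusted p = 2.95e-08 and 6.94e-08). The lines overlapped, and their difference did not pass (−0.06, 95% interval −0.24 to 0.13, limma adjusted p = 0.665).

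Mxd3 (ENSMUSG00000021485, chromosome 13, 55472981 to 55477636, minus strand), the Mad protein expressed in dividing cells, had 859, 921 and 920 normalized counts in KO-c19, 1064, 962 and 970 in KO-c43, against 430, 470 and 475 in WT. It rose by 0.97 ± 0.0616 in KO-c19 and 1.12 ± 0.0616 in KO-c43 (limma adjusted p = 1.52e-10 and 2.23e-11). Every KO-c43 library was above every KO-c19 library, but the difference of 0.15 did not pass (95% interval 0.02 to 0.28 before adjustment, limma adjusted p = 0.0652). The Mxd3 span overlaps that of Prelid1, an abundant gene on the opposite strand, over 105 bases. Prelid1 averaged 18025 normalized counts in KO-c19, 23856 in KO-c43 and 18186 in WT. Whether reads of the shared bases add to the values of Mxd3 was not tested.

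Mxi1 (ENSMUSG00000025025, chromosome 19, 53298949 to 53364241, plus strand), also called Mxd2, had 2573, 2640 and 2741 normalized counts in KO-c19, 3054, 3091 and 3077 in KO-c43, against 1450, 1540 and 1525 in WT. It rose by 0.82 ± 0.0413 in KO-c19 (1.76-fold, limma adjusted p = 6.81e-12) and by 1.03 ± 0.0413 in KO-c43 (2.04-fold, limma adjusted p = 2.87e-13). Unlike Mxd4, Mxi1 stood higher in KO-c43 than in KO-c19, by 0.21 ± 0.0413 (limma adjusted p = 0.000416). An unnamed gene model on the opposite strand, Gm30541, overlaps Mxi1 over 5146 bases and averaged 47.3, 63.4 and 31.1 normalized counts in KO-c19, KO-c43 and WT. Among the members, Mxi1 was the only one called higher in KO-c43 than in KO-c19.

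Mnt had the smallest increase. Mnt (ENSMUSG00000000282, chromosome 11, 74721746 to 74736551, plus strand) encodes the broadly expressed antagonist that pairs with Max and with Mlx. It had 2702, 3202 and 3321 normalized counts in KO-c19, 2689, 2610 and 2386 in KO-c43, against 2151, 2292 and 2320 in WT. The lowest KO-c43 library lay just above the highest WT library. Mnt rose by 0.44 ± 0.0687 in KO-c19 (1.36-fold, limma adjusted p = 4.55e-05) and by 0.18 ± 0.0687 in KO-c43 (1.14-fold, limma adjusted p = 0.03). The call in KO-c43 was lost without WT replicate 1 (change 0.15, limma adjusted p = 0.106), without KO-c43 replicate 1 (0.15, limma adjusted p = 0.111) and without KO-c43 replicate 2 (0.17, limma adjusted p = 0.085). KO-c43 was lower than KO-c19 (difference −0.26 ± 0.0687, limma adjusted p = 0.00753).

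Between the lines, 6 of the 9 members differed, where 39.4% of genes tested were called, 21.1% higher and 18.3% lower in KO-c43 (3717 and 3211 genes, or 2956 and 4309 when each library was divided by its total). The libraries of the lines did not overlap for 7 members, beside 24.9% of genes higher and 23.0% lower without overlap. Myc, Mycl, Max, Mxd4 and Mnt were lower in KO-c43 than in KO-c19 and Mxi1 was higher. Mxd1, Mxd3 and Mlx did not pass. The median absolute difference of the members between the lines was 0.21, beside 0.18 over all genes tested, so the lines differed in the network by about as much as in other genes.

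Levels of different genes were compared per kilobase of exon, with all annotated exons of a gene merged (GENCODE vM21). In WT the order ran Myc, Max, Mlx, Mnt, Mxi1, Mxd3, Mycl, Mxd4 and Mxd1, with no overlap between neighbours over the 3 libraries. Myc led by far, at 6489 ± 314 normalized counts per kilobase in KO-c19, 4899 ± 176 in KO-c43 and 10226 ± 358 in WT, and Max came next at 1188 ± 21.6, 1038 ± 16.0 and 1383 ± 13.4 (SD, n = 3 each). In both lines Mycl fell to the last place, at 7.20 ± 0.219 in KO-c19 and 4.51 ± 0.606 in KO-c43, against 78.4 ± 8.87 in WT, where Mxd4 and Mxd1 stood below it. Mxd4 stood at 170 ± 9.10 in KO-c19, 146 ± 6.50 in KO-c43 and 37.1 ± 0.26 in WT. In KO-c19 Mnt and Mlx overlapped, as did Mxi1 and Mxd3, and in KO-c43 the same pairs overlapped. With the longest transcript as the length instead, the order in KO-c43 after Max ran Mxi1, Mlx, Mxd3 and Mnt.

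The summed per-kilobase level of the 5 antagonists was 1658 ± 106 in KO-c19, 1624 ± 53.3 in KO-c43 and 967 ± 39.4 in WT. Their ratio to Max was 1.39 ± 0.0649 in KO-c19, 1.56 ± 0.0426 in KO-c43 and 0.699 ± 0.0315 in WT, so antagonist transcripts outnumbered those of Max in the knockout lines on this scale and not in WT. Myc over Max was 5.46 ± 0.171 in KO-c19, 4.72 ± 0.137 in KO-c43 and 7.39 ± 0.27 in WT. Myc and Mycl together exceeded the antagonists 3.92 ± 0.0898 times in KO-c19, 3.02 ± 0.0114 times in KO-c43 and 10.7 ± 0.145 times in WT. Myc took 65.2% of the per-kilobase level of the 9 genes in KO-c19, 60.1% in KO-c43 and 76.3% in WT. With the longest transcript as the length, chosen after seeing the data, antagonists over Max were 0.957, 1.09 and 0.454 in KO-c19, KO-c43 and WT, so whether that ratio passes 1 in KO-c19 depends on the length used, while the order of the groups did not. These ratios follow from the changes given above and were not tested. Transcript levels do not give protein levels or dimers.

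**Figure D3:**
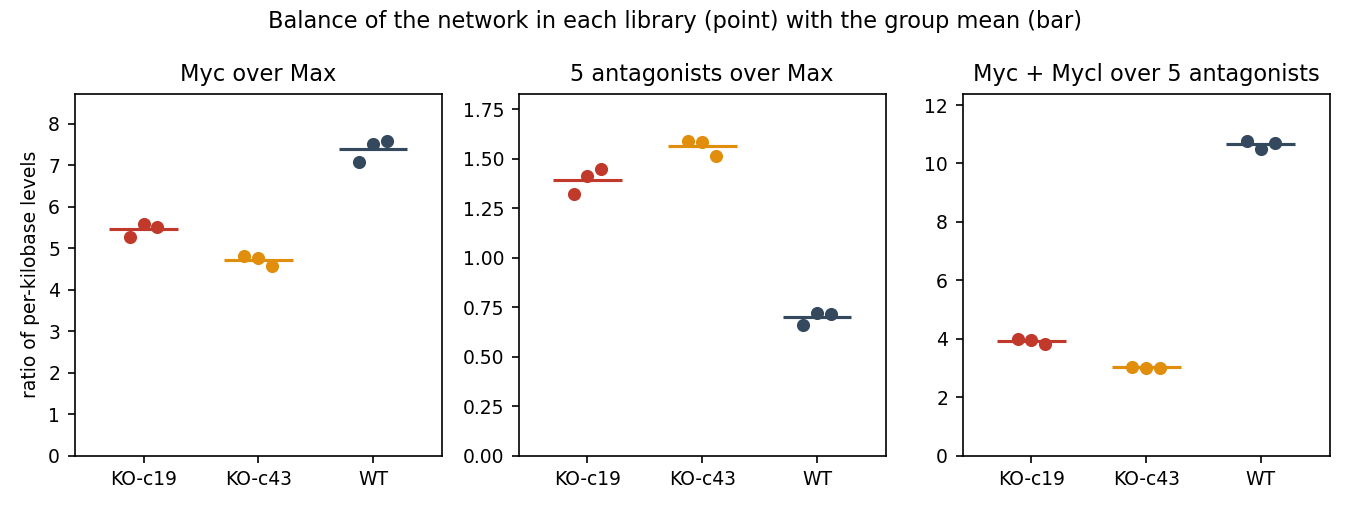
Ratios of per-kilobase levels in each library (points) with group means (bars): Myc over Max, the summed 5 antagonists over Max, and Myc plus Mycl over the 5 antagonists (vertical axes from 0). The Myc to Max and the Myc plus Mycl to antagonist ratios are lower in both lines than in WT, and the antagonist to Max ratio is higher, with means of 1.39 in KO-c19, 1.56 in KO-c43 and 0.699 in WT.

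Other genes of the wider network did not follow one direction. Mga, for a very large Max partner of a repressive complex, averaged 4933 ± 229 normalized counts in KO-c19, 4970 ± 151 in KO-c43 and 5269 ± 117 in WT. It passed in KO-c19 by a narrow margin (−0.10 ± 0.0409, limma adjusted p = 0.0468) and not in KO-c43 (−0.08 ± 0.0409, limma adjusted p = 0.0792), and the KO-c19 call was lost under 12 of 19 other settings, with 0.0020 under total scaling. Mlxip, for the Mlx partner MondoA, fell in KO-c43 (−0.24 ± 0.0413, limma adjusted p = 5.34e-05) but its change of −0.03 in KO-c19 did not pass (limma adjusted p = 0.504), and KO-c43 was lower than KO-c19 by a tested difference of −0.21 (limma adjusted p = 0.000527). The α-arrestin genes Txnip and Arrdc4 are classic targets of MondoA and Mlx. Txnip had 1328, 1376 and 1398 normalized counts in KO-c19, 568, 678 and 647 in KO-c43, against 391, 376 and 423 in WT, an increase of 3.45-fold and 1.59-fold (limma adjusted p = 1.54e-13 and 1.2e-07). Arrdc4 went the other way. It was listed at 0 in 2 KO-c19 libraries and at 1.01 in the other, had 1.94, 1.80 and 2.09 normalized counts in KO-c43, and had 66.8, 54.4 and 65.7 in WT. It passed the filter on low values only through the 3 WT libraries, so its lower level in both lines is given as a description, and it was not tested once a WT library was left out.

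Genes that Myc is known to induce mostly fell. Of 42 such genes tested, KO-c19 had 35 decreases and 2 increases, and KO-c43 had 35 decreases and 5 increases. Over all genes tested, 34.9% fell and 32.8% rose in KO-c19, beside 33.1% and 32.5% in KO-c43. The list medians were −0.65 and −0.62, beside 0.0032 and 0.0070 over all genes tested. In the deposited values every library had the same median ratio to the genes' geometric means, 1.008. A median near 0 over all genes therefore follows from the scaling. The genes that rose in both lines were E2f1 and Shmt1, and Ldha, Cdk4 and Tert also rose in KO-c43, all 5 named after their values were seen. The call of Cdk4, a change of 0.09 (limma adjusted p = 0.0417), was lost under 7 of 19 other settings, among them leaving out any 1 of the 3 WT libraries. Ldha, Cdk4 and Tert were also called higher in KO-c19 under total scaling. Ccnd2, for cyclin D2, averaged 1397 ± 54.8 normalized counts in KO-c19, 1083 ± 29.8 in KO-c43 and 7973 ± 17.4 in WT, a decrease of 5.71-fold and 7.36-fold (limma adjusted p = 1.96e-18 and 3.37e-19). Pa2g4, for a nucleolar growth regulator, fell 1.78-fold and 1.86-fold. Polr1b, for a core subunit of RNA polymerase I, averaged 1980 ± 54.2 in KO-c19, 1828 ± 36.3 in KO-c43 and 3907 ± 107 in WT. Rrs1, for a ribosome assembly factor, fell 1.82-fold and 2.01-fold. Many genes of this list serve ribosome production, in which Nat10 also has a known part. In the promoter windows, 8 of 33 genes of this list held CACGTG (24.2%), beside 11.6% of genes tested. Over all genes tested with a window, those with CACGTG fell in 45.7% of cases in KO-c19 and 44.2% in KO-c43, against 39.1% and 37.1% of those without it, and rose in 30.7% and 32.3%, against 35.6% and 36.4%.

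Genes that Myc is known to repress did not move one way. Of 15 tested, 8 were called higher and 6 lower in KO-c19, and KO-c43 had 7 increases and 6 decreases, with medians of 0.30 and 0.09. Over all genes tested, 32.8% rose and 34.9% fell in KO-c19, and 32.5% and 33.1% in KO-c43. Col1a1 and Ndrg2, both lower in the knockout lines, passed the filter on low values only through the WT libraries. Their direction was thus set by the filter and says nothing about the list. Without 1 library, 4 to 7 genes were called lower in KO-c19 and 4 to 6 in KO-c43. The KO-c43 median was 0.48 without WT replicate 1, 0.46 without WT replicate 2 and 0.43 without WT replicate 3, since fewer genes then passed the filter. Gas1, for a growth arrest protein, averaged 237 ± 16.7 normalized counts in KO-c19, 589 ± 15.9 in KO-c43 and 13.3 ± 4.92 in WT, and Itga1, for an integrin collagen receptor, averaged 1625 ± 108, 694 ± 19.9 and 97.4 ± 13.5. The WT libraries had 18.9, 9.99 and 11.0 for Gas1, which passed the filter on low values only with the knockout libraries, where it is high. The increase of Gas1 is therefore given as a description. In the opposite direction, Thbs1, for the matrix protein thrombospondin 1, averaged 6826 ± 288 in KO-c19, 13697 ± 516 in KO-c43 and 66911 ± 422 in WT. For Gadd45b, a stress-response gene, the decrease was 12.5-fold and 10.8-fold. The classic repressed gene Cdkn1a, for the cell cycle inhibitor p21, chosen after its values were seen, rose by 1.83 in KO-c19 and 0.91 in KO-c43.

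Genes for the turnover of Myc moved in both directions. Of 22 tested, KO-c19 had 6 increases and 9 decreases, and KO-c43 had 7 and 10. Under total scaling, 10 were called higher in KO-c19. Among all genes tested, 32.8% rose and 34.9% fell in KO-c19, and 32.5% and 33.1% in KO-c43, so both directions are common outside this list too. Fbxl14, for a ubiquitin ligase subunit, rose 1.59-fold and 1.30-fold. The phosphatase inhibitor gene Set, which favours Myc stability, fell 1.34-fold and 1.38-fold, and the kinase genes Aurka and Plk1 fell 1.38-fold and 1.40-fold, and 1.33-fold and 1.32-fold. Of 19 cofactor genes, 10 were called lower and 3 higher in KO-c19, against 12 and 3 in KO-c43. Bin1, whose product interacts with Myc and restrains it, rose in both lines, averaging 7817 ± 274 normalized counts in KO-c19, 7327 ± 147 in KO-c43 and 4356 ± 77.9 in WT (limma adjusted p = 9.82e-13 and 5.22e-12). The AAA ATPase genes Ruvbl1 and Ruvbl2 were lower, 1.68-fold and 1.56-fold in KO-c19 against 1.25-fold and 1.52-fold in KO-c43, and Wdr5, for a chromatin adaptor that binds Myc, fell 1.46-fold and 1.42-fold.

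The corepressor genes that serve the antagonists did not rise as a group. Of 16 tested, KO-c19 had 4 increases and 8 decreases and KO-c43 had 5 and 6, with medians of −0.11 and −0.0084. For this list and those below, the shares of all genes tested that rose and fell were 32.8% and 34.9% in KO-c19. In KO-c43 they were 32.5% and 33.1%. Among the subunits of the Sin3 complex, Sap130 rose 1.41-fold and 1.37-fold, whereas Sap30 fell 1.91-fold and 1.57-fold, Brms1 fell 2.50-fold and 1.87-fold and Ing1 fell 1.26-fold and 1.23-fold. Among 9 genes at the Myc locus or acting on its transcription, 4 increases and 5 decreases were called in KO-c19, beside 3 and 4 in KO-c43. Tcf7l2, for a Wnt effector, rose 1.45-fold and 2.02-fold, and Ctcf, for the insulator protein, fell 1.16-fold and 1.19-fold. The nucleic acid-binding protein genes Cnbp and Ybx1 were lower by 1.80-fold and 1.37-fold in KO-c19 but by 1.44-fold and 1.24-fold in KO-c43. Proliferation genes were read beside the network: of 14 tested, KO-c19 had 1 increase and 10 decreases and KO-c43 had 3 and 9, with medians of −0.25 and −0.22. The replication helicase gene Mcm2 fell 1.66-fold and 1.28-fold, Mcm3 1.21-fold and 1.28-fold, and Mcm5 1.28-fold and 1.41-fold. In the knockout lines most proliferation genes were lower. Of the 7 epithelial markers measured, 5 were lower while Krt8 and Krt18 were higher, and Pdgfra was higher while Col1a1 was lower. Cldn7, among those 5, and Col1a1 passed the filter on low values only through WT, so their direction was set by the filter. The part of these changes in those of the network was not tested.

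**Figure D4:**
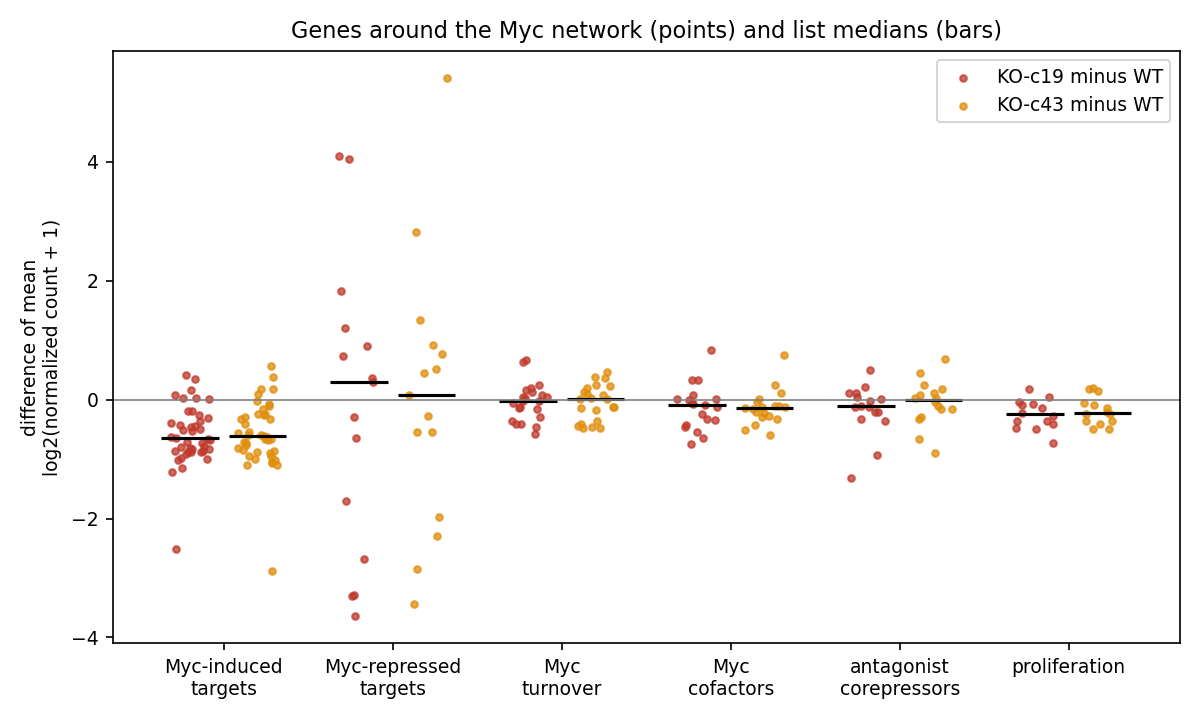
Difference of mean log2(normalized count + 1) from WT in each knockout line (vertical axis) for the tested genes of 6 lists (points), with list medians (bars). Most Myc-induced targets lie below 0 in both lines (medians −0.65 and −0.62), while Myc-repressed targets spread to both sides.

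The genes whose pattern was most like that of Myc over the 9 libraries, by the root mean square difference of log2 values centred on WT, were Ifi30, Prag1, Gcat, Ifngr2 and Slc19a1, at distances of 0.0558, 0.0564, 0.0584, 0.0740 and 0.0823. They encode a lysosomal thiol reductase, a pragmin pseudokinase, a mitochondrial enzyme of threonine breakdown, an interferon-gamma receptor chain and the reduced folate carrier. The change of Ifi30 was −0.66 in KO-c19 and −1.08 in KO-c43. That of Gcat was −0.74 and −1.03. Likeness here rests on 3 group means and describes these libraries only.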

How the data were processed

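Total RNA was sequenced in 9 libraries after ribosomal RNA depletion. Cutadapt, STAR, Partek and the mm10 build appear in the submitters' processing notes, without versions, counter or annotation. Per the file headers, the authors deposited normalized counts, used here as a signal per gene. Low values fell within 0.1 of whole multiples of a library's step in 84.13% to 86.05% of cases, too few to recover reads, so no count model was used. Of the table's columns of samples, all were matched to a library by title. The table's gene coordinates do not match GRCm38: 22292 identifiers are in GENCODE vM21, with equal starts for 468 and equal lengths for 21989. Its coordinates are therefore printed as given, and promoters are in GRCm38.p6.

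Values were transformed as log2(value + 1). The filter kept genes that reached 10 in 3 or more libraries. A single limma model (limma 3.58.1, R 4.3.3) held the 3 group means of these genes, its variances shrunk robustly towards a trend on mean level, with two-sided tests. The fit was run on simulated data in which far fewer genes changed than were called here, and alike in both lines. It therefore does not vouch for the fit in these data. Of genes changed there by 0.5 on the log2 scale, 75.4% were called with the right sign for KO-c19 and 72.1% for KO-c43. Genes outside the network were named by a rule: the 4 tested of 5 listed genes of the wider network, up to 4 of each list with the smallest larger p of the lines, and the 5 most like Myc. The members and lists were chosen with earlier results of these data known. Lists are described by counts and medians and were not tested as sets. The replicate numbers did not pair the libraries. In all, 19 alternatives were run, varying the pseudocount, filter, scaling, variance model, libraries fitted and replicate block, and leaving out each library. Plots used matplotlib 3.10.9 in Python 3.11.15.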

Additional observations from a re-analysis of the deposited data

Results flagged for a closer look

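The 2 knockout lines differed for 6 members and 36 other genes named here, by the limma test of KO-c43 against KO-c19, which called 39.4% of all genes tested. The 36 include genes named for their likeness to Myc or after their values were seen, so their number cannot be set against that share. Different effects of the knockout and other differences between the 2 lines cannot be told apart. Values are differences of mean log2(normalized count + 1), KO-c43 minus KO-c19, each with limma adjusted p under the threshold of 0.05. Among the members they were −0.40 for Myc, −0.65 for Mycl, −0.19 for Max, −0.22 for Mxd4, 0.21 for Mxi1 and −0.26 for Mnt. The call for Mnt was lost without an intensity trend and robust fitting (adjusted p = 0.0518).

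Lower in KO-c43 than in KO-c19 were also Mlxip (−0.21), Txnip (−1.12), Fbxl14 (−0.29), Ccnd2 (−0.37), Polr1b (−0.11), Rrs1 (−0.14), Itga1 (−1.22) and Mcm5 (−0.14). So were the genes named after their values were seen, or for a profile like that of Myc, Cdkn1a (−0.91), Shmt1 (−0.18), Ifi30 (−0.42), Prag1 (−0.50), Gcat (−0.29), Ifngr2 (−0.50) and Slc19a1 (−0.23). The direction of the last 5 follows from their choice by likeness to Myc, so it is a description. The markers Cdh1 (−0.63), Epcam (−2.96), Krt8 (−0.11), Krt18 (−0.11), Krt14 (−0.54), Pdgfra (−0.95) and Pecam1 (−2.00) were lower too. Pecam1 reached no more than 2.71 normalized counts in any KO-c43 library. It passed the filter on low values only through libraries outside that line. The filter thus favoured its direction, which is given as a description. Higher in KO-c43 were Arrdc4 (1.22, with all 6 libraries at or below 2.09 normalized counts, and not called under 7 of the 15 other settings that tested it), Tcf7l2 (0.48), Cnbp (0.32), Ybx1 (0.14), Ruvbl1 (0.43), Brms1 (0.42), Sap30 (0.28), Thbs1 (1.00), Gadd45b (0.21), Gas1 (1.31), Mcm2 (0.37), E2f1 (0.15), Ldha (0.11) and Tert (0.21). Of 19 other settings, the call was lost under 5 for Polr1b, 3 for Gadd45b, 5 for E2f1, 6 for Ldha, 9 for Tert, 7 for Krt8, 5 for Krt18 and 1 for Krt14.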

How the results depend on the processing

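All 114 alternative values of the counts of members called and of Myc kept their direction and their side of the threshold, or stayed within 1.5 times. The count was 9 in KO-c19 under every alternative, 8 or 9 in KO-c43 and 5 or 6 between the lines, and leaving out each library in turn gave 9, 8 to 9 and 6. Without 1 library Myc changed by −0.68 to −0.62 in KO-c19, while KO-c43 gave −1.09 to −1.04. Among members, only Mnt lost a call: in KO-c43 without 1 of 3 libraries (given above) and with neither trend nor robust fitting (0.18, adjusted p = 0.099), and between the lines in that setting (−0.26, adjusted p = 0.0518). Total scaling raised the median of all genes tested to 0.10 in KO-c19 and to 0.05 for KO-c43, and split the calls in KO-c19 into 6840 higher and 5010 lower, beside 5761 and 6131. Myc was −0.56 under total and −0.51 under quantile scaling in KO-c19.

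Same-numbered libraries of different groups did not deviate together (correlations from −0.0914 to 0.0754), so they share only a number. With the replicate number as a block, the counts of members called were 9, 9 and 6, as without it, and Myc was −0.66 and −1.06.

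List medians near 0 changed sign with the scaling. Under total and quantile scaling the medians were 0.034 and 0.011 for the wider network and 0.082 and 0.057 for turnover genes in KO-c19. In KO-c43 they were 0.0061 and 0.050 for locus and transcription genes and 0.037 and 0.021 for corepressors. The cofactor median in KO-c19 was 0.0060 under total scaling, where Mga was 0.0020. Leaving out each library gave −0.011 to 0.020 for turnover genes and −0.042 to 0.015 for corepressors in KO-c43. The cause was not tested. Counts of list genes moved by over 1.5 times in KO-c19 under total scaling, to 7 induced targets, 10 turnover genes, 5 cofactors and 2 proliferation genes called higher (beside 2, 6, 3 and 1) and 5 corepressors called lower (beside 8). Under quantile scaling 5 induced targets, 6 cofactors and 2 proliferation genes were called higher, and with neither trend nor robust fitting 2 corepressors (beside 4). Depth limits the values of Mycl and Arrdc4 in the knockout lines.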

Other observations

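Within 1 Mb on each side of Myc in the table's coordinates, 6 other genes were tested, of which 1 rose and 2 fell in each line. The gene beside it, Pvt1, a long noncoding RNA chosen after its values were seen, averaged 838 normalized counts in KO-c19, 832 in KO-c43 and 700 in WT and rose by 0.26 and 0.25 (limma adjusted p = 0.000277 and 0.000419), while Myc fell. Around Mxd4, 32 genes were tested within the same distance, with 16 rising and 11 falling in KO-c19 and 10 rising and 8 falling in KO-c43. Around Mycl, 21 were tested, with 5 rising and 10 falling in KO-c19 and 4 rising and 10 falling in KO-c43, and the median change of 21 genes was −0.35 and −0.29, against −3.39 and −4.05 for Mycl. These counts stand beside 32.8% of all genes tested rising and 34.9% falling in KO-c19, and 32.5% and 33.1% in KO-c43. DNA copy number was not analysed here.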
